A study of Mus musculus with 10 samples.

Results

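The genes described here are the contractile programme of smooth muscle, 35 of the 55536 genes counted in bladder RNA of C57BL/6 mice. They were chosen by name for their known roles, with earlier results of these data known, and fall into 8 roles, from the myosin filament to the transcription factors that switch the programme on. Poly(A) RNA of excised and homogenised bladder was sequenced in 10 libraries, 4 from wild type mice (WT), 3 from OMD-/- mice and 3 from PRELP-/- mice. The comparison asks how bladders that lack either of these small leucine-rich proteoglycans of the extracellular matrix differ from WT. The genotype label of the PRELP libraries is spelled PRLEP-/- and their titles name a PRELP knockout. The study's text describes both knockouts as constitutive, with the coding sequence removed and a β-galactosidase gene placed under the promoter of the deleted gene. The same text speaks of bladder epithelia and of other group sizes, and the values below are those of the deposited libraries and their labels. Age, sex, and whether a library is 1 mouse are not given in the sources used here, so the p-values measure the spread between these libraries. In RNA of such tissue, fewer smooth muscle cells in the bladder, less muscle in the tissue taken and less RNA of a gene per cell cannot be told apart.

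The wall of the bladder is largely detrusor, a smooth muscle that stays relaxed while urine is stored and shortens on voiding. Acetylcholine from parasympathetic nerves acts on muscarinic receptors, calcium enters the cell and leaves its internal store, calmodulin activates myosin light chain kinase, and the phosphorylated myosin pulls on actin filaments that are anchored in dense bodies. Myosin phosphatase reverses the step. Serum response factor (Srf) and its cofactor myocardin (Myocd) switch most of these genes on by binding a short element called the CArG box, which is what the promoters were searched for.

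RefSeq promoter windows of build GRCm38.p6, from 250 bases before to 50 bases after a transcription start, were at hand for 31 of the 35 genes, and none was used for Actg2, Myh11, Myocd or Tagln. A strict CArG box, of 10 bases and read on both strands, stood in the windows of 4 of these 31 genes (12.9%), namely Srf, Myl9, Myl6 and Ldb3. It stood in those of 1.81% of the 27025 genes whose windows were searched. Windows on an excluded chromosome or of another length were not searched. The 4 stretches are shown because they carry the element named for the whole programme, 5′ to 3′ on the strand of the gene, with the box in capitals. The Srf stretch lies at chr17:46556190-46556269 on the minus strand and holds 2 boxes, which begin 82 and 62 bases before the start of transcription. The Myl9 stretch lies at chr2:156775278-156775337 on the plus strand with its box 161 bases before the start, the Myl6 stretch at chr10:128493025-128493084 on the minus strand with its box 50 bases before it, and the Ldb3 stretch at chr14:34588682-34588741 on the minus strand with its box 35 bases before it. A match describes the letters only.
Srf: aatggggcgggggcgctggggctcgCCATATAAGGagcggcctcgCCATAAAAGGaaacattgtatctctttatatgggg
Myl9: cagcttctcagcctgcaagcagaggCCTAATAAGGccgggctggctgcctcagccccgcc
Myl6: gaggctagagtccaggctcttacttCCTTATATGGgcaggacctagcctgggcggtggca
Ldb3: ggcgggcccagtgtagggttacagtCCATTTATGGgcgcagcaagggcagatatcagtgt

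The libraries held from 20391437 to 46269079 counts, and several facts about them touch the values below. Libraries of a group came in close pairs: between WT replicates 1 and 2, WT 3 and 4, OMD-/- 2 and 3 and PRELP-/- 2 and 3 the coefficient of variation over genes beyond counting noise was 3.84% to 9.27%, against 16.7% to 37.9% for every other pair within a group, and PRELP-/- replicate 1 stood farthest from its group. OMD-/- replicate 1 was nearer to PRELP-/- 2 and 3, at 8.84% and 9.94%, than to the other OMD-/- libraries, at 16.9% and 16.7%. WT replicates 1 and 2 had 188 and 163 CPM (counts per 1000000 of the TMM-scaled library size) summed over 4 Y chromosome genes while WT 3 and 4 had 0 and 0.0439, and the knockout libraries had 0.733 to 117, so sex was not balanced. Xist, an RNA of female cells, stood at 2.13 and 5.63 CPM in WT 1 and 2 and at 1009 and 1215 CPM in WT 3 and 4. It stood at 0.387 CPM in PRELP-/- replicate 1 and at 38.7 to 89.4 CPM in the other knockout libraries. Those other libraries matched neither WT pair in both Xist and the Y chromosome genes, and the reason was not tested. Prelp had 46 to 74 counts in the PRELP-/- libraries against 4848 to 19429 elsewhere, OMD-/- replicate 1 included at 16374, and Omd had 0 counts in the 3 OMD-/- libraries but also only 0, 1, 8 and 12 in WT, so that Omd checks the OMD-/- label little. Markers of the lining were abundant in all, with 7759 to 19406 CPM summed over 6 umbrella cell genes. The 6 genes that define smooth muscle here (Myh11, Acta2, Actg2, Tagln, Cnn1 and Des) were all detected in all 10 libraries, at a summed 195 to 1229 CPM.

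Among the WT bladders the programme was far from even. Of the 32 members with a mean of at least 1 CPM over all libraries, 28 were higher in WT replicates 3 and 4 than in WT 1 and 2 and 14 were at least 2-fold higher, while 1.87% of the 14475 genes at that level were. No member was at least 2-fold lower there, beside 1.48% of those genes. The median ratio of the members was 1.74, against 0.980 for all genes, and the highest was 12.6 for Cnn1. Srf, Smtn, Atp2b4 and Cacna1c were the 4 members with a ratio under 1, from 0.880 to 0.935. The summed level of the 6 defining genes was 279 and 262 CPM in WT 1 and 2 and 1229 and 1074 CPM in WT 3 and 4. This was noticed in earlier results of these data and is given as a description.

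**Figure D1:**
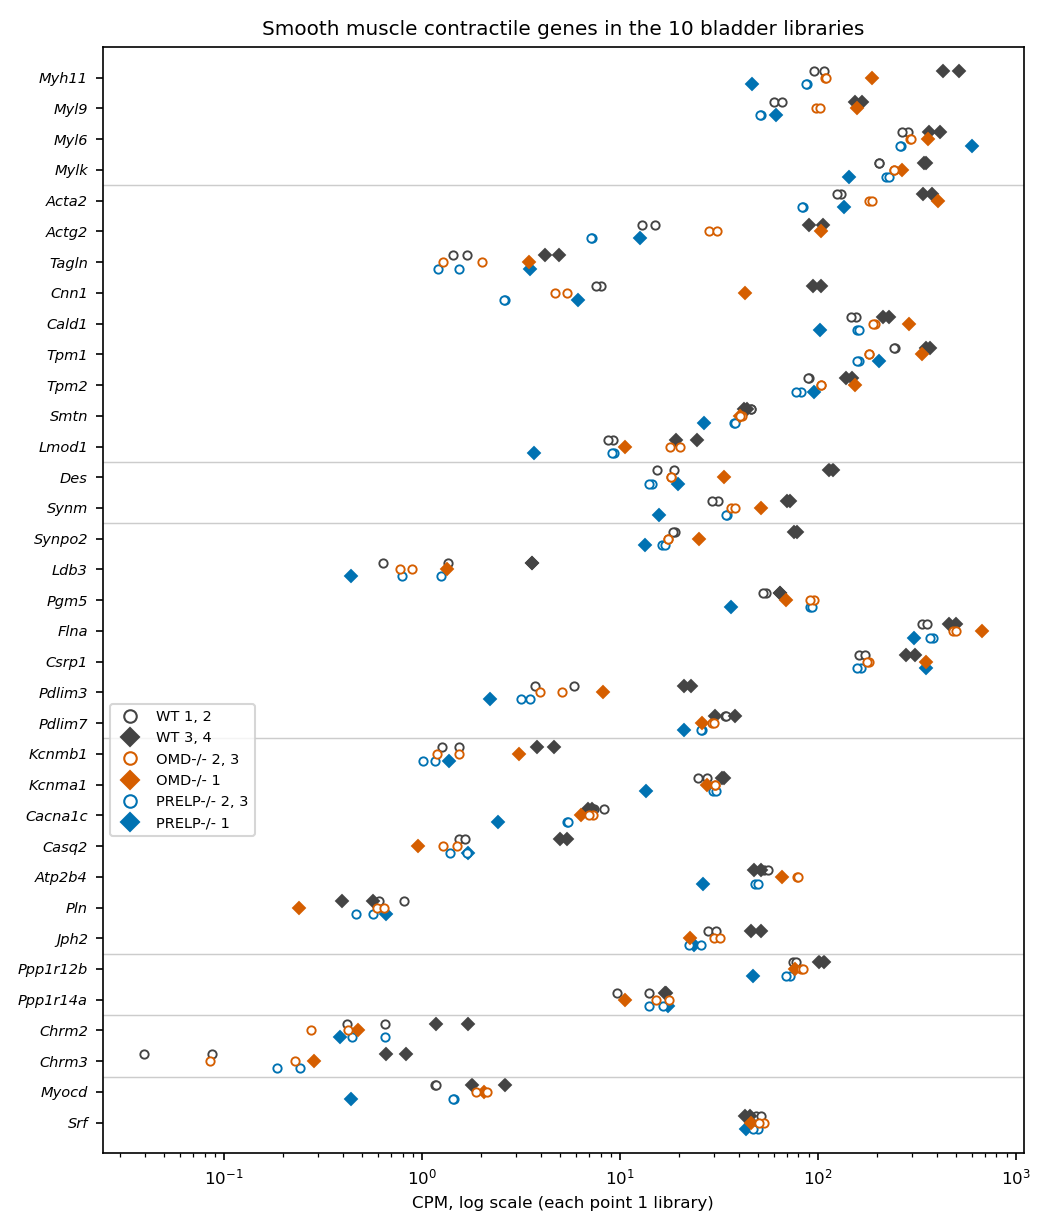
The CPM of each of the 35 genes in each library on a log axis, ordered by role, with WT in grey, OMD-/- in orange and PRELP-/- in blue. WT replicates 3 and 4 (filled grey) stand to the right of WT 1 and 2 (open grey) for Myh11, Actg2, Cnn1, Des and most others, and the 0 of Chrm3 in PRELP-/- replicate 1 is not drawn.

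Other markers moved with this split, and their part in it was not tested. The 5 heart muscle genes summed to 24.3 and 20.7 CPM in WT 3 and 4 and to 0.372 to 3.82 CPM in the other 8 libraries, with Tnnt2, the troponin T of heart, at 19.4 and 15.7 CPM and the defining Myh6 and Myl7 at 0 in all 10 libraries. The 10 skeletal muscle genes summed to 26.0 and 23.7 CPM in WT 3 and 4 and to 6.52 to 11.9 CPM elsewhere, with Acta1 at 10.4 and 9.34 CPM and the fast myosin Myh4 at 0 in all 10. Acta1 and Actc1 are actins that smooth muscle can also express. The 5 endothelial genes ran the other way, at 157 to 170 CPM in WT 3 and 4 and 370 to 384 CPM in WT 1 and 2. The 5 seminal vesicle and male accessory gland genes summed to at most 0.0438 CPM and the 4 fat genes to at most 0.307 CPM in every library. Within WT, sex, the library pair and the muscle level cannot be told apart.

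The knockout libraries were uneven too, each group in its own way. OMD-/- replicate 1 was at least 2-fold above OMD-/- 2 and 3 for 5 of the 32 members, against 0.435% of all genes, and for none was it at least 2-fold below, against 2.52% of all genes. These 5 were Cnn1 at 8.51-fold, Actg2 at 3.52-fold, the potassium channel subunit Kcnmb1 at 2.27-fold, Acta2 at 2.19-fold and Tagln at 2.11-fold. PRELP-/- replicate 1 differed from PRELP-/- 2 and 3 in both directions, with 4 members at least 2-fold higher (Tagln, Cnn1, Myl6 and Csrp1) and 7 at least 2-fold lower (Myocd, Pgm5, Lmod1, Ldb3, Cacna1c, Kcnma1 and Synm), where 8.55% and 13% of all genes were.

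**Figure D2:**
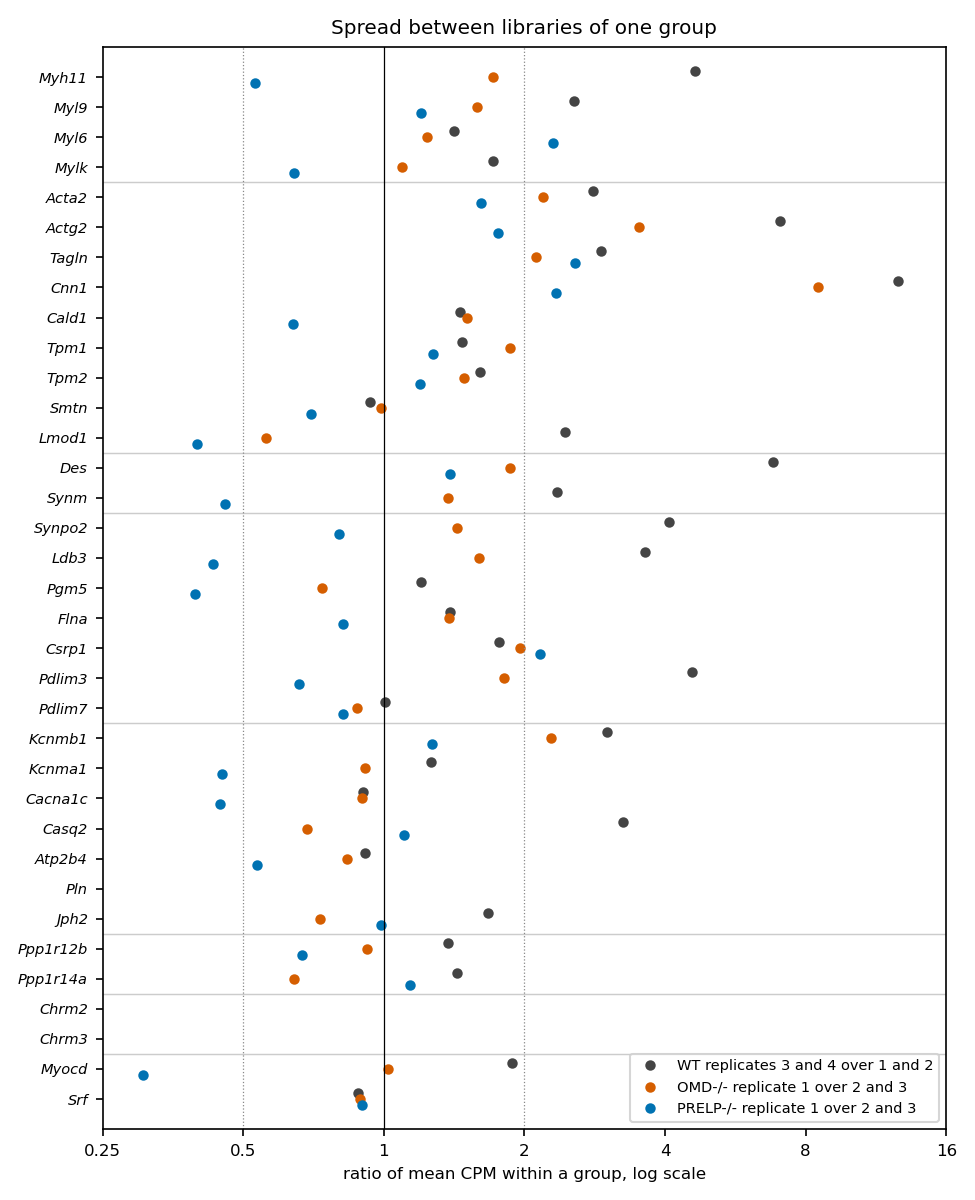
The ratio of mean CPM between libraries of the same group on a log axis, for the 32 members with a mean of at least 1 CPM, with dotted lines at 2-fold either way. The WT points (grey, replicates 3 and 4 over 1 and 2) reach 12.6 for Cnn1 and lie right of 1 for 28 of 32 members, and the OMD-/- points (orange) lie right of 1 for 20.

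Against this spread, OMD-/- bladders differed from WT in 2 of the 34 members tested, Pgm5 and Atp2b4, both higher, and in none that was lower. At an unadjusted p under 0.05 stood 6, with Flna also higher and Pdlim7, Casq2 and Chrm2 lower, where 41.3% of all genes were under that p. Both calls were lost when the close library pairs described above were summed, at adjusted p = 0.131 for Pgm5 and 0.0783 for Atp2b4 (edgeR). Over all 16647 genes tested 29.4% passed, 14.3% higher and 15.1% lower, beside 5.88% of the members. The defining genes were not among those that passed, with Acta2 at a mean of 259 ± 127 CPM (SD, n = 3) against 244 ± 134 CPM in WT (n = 4), and Actg2 at 54.4 ± 43.0 against 56.4 ± 49.5 CPM. The median log2 fold change of the members was -0.16, where that of all genes was -0.0002. For Pgm5 and Atp2b4 the OMD-/- libraries all lay above WT, where 20.5% of all genes did, and for Smtn, Pdlim7 and Casq2 all lay under it, where 18.5% did. DESeq2 also called Flna higher (0.40, adjusted p = 0.0399) and Casq2 lower (-1.45, adjusted p = 0.0101), and limma-voom called 9 members lower, where 26.6% and 43.3% of all genes passed in either direction with these tools. Single libraries moved these calls. Without WT replicate 1 there were 4 lower members, Ldb3 at -1.53, Casq2 at -1.71, Jph2 at -0.63 and Chrm2 at -1.60, where 29.5% of all genes passed in either direction. Casq2 was lower without WT 2 (-1.68), Pdlim7 without WT 4 (-0.34) and Tpm1 without OMD-/- 1 (-0.74), and Flna was higher without WT 3 (0.49). Unless another tool is named, tests are the quasi-likelihood test of edgeR on counts, adjusted by Benjamini and Hochberg's method over every gene tested.

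PRELP-/- bladders had lower means than WT for 31 of 34 members tested, with a median log2 fold change of -0.67 against 0.023 for all genes, and none of the 34 passed in edgeR. Over all 16581 genes 7.29% passed, 1.4% higher and 5.89% lower. At an unadjusted p under 0.05 stood 16 members, all of them lower, where 26.7% of all genes were under that p in either direction. For 11 members the 3 PRELP-/- libraries all lay under the 4 WT libraries (Myh11, Actg2, Cnn1, Tpm1, Smtn, Synpo2, Pdlim3, Pdlim7, Cacna1c, Jph2 and Ppp1r12b), where 15.8% of all genes did, and for none did they all lie above, where 14.5% did. DESeq2 on the same counts called 9 members lower and limma-voom with sample quality weights called 24 lower and 1 higher, while 13.0% and 42.0% of all genes passed in either direction with these tools, so the count of calls turned on the test. Without PRELP-/- replicate 1, Tpm1 (-0.93) and Pdlim7 (-0.42) passed as lower, where 22.2% of all genes passed in either direction, and without WT replicate 2 Pdlim3 did (-2.50). Both knockouts were set against the same WT libraries.

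**Figure D3:**
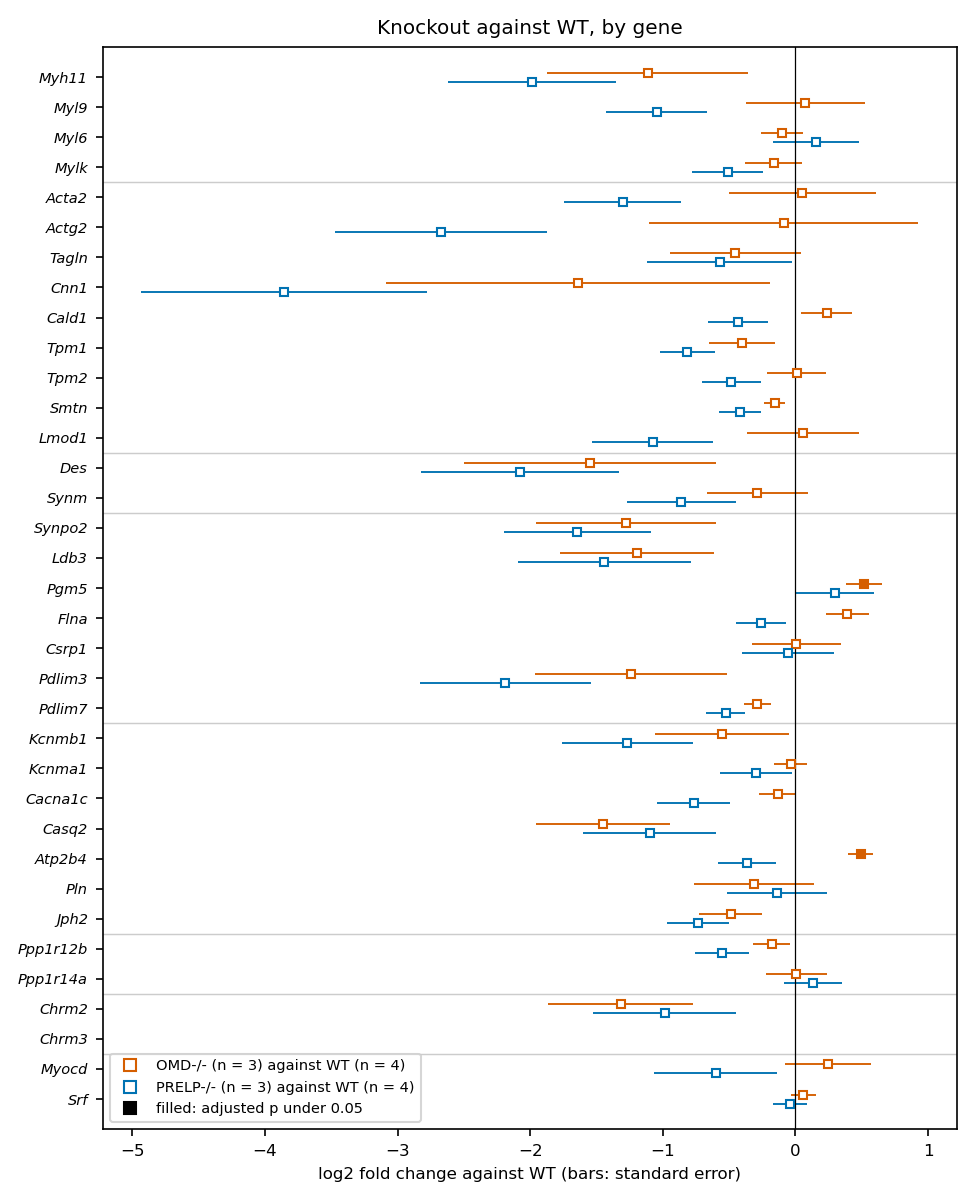
The log2 fold change of each member against WT with its standard error, OMD-/- in orange and PRELP-/- in blue, with the genes that passed in edgeR filled. Only Pgm5 and Atp2b4 in OMD-/- are filled, Cnn1 in PRELP-/- lies farthest left at -3.86, and Chrm3 has no point because it did not pass the filter on low counts.

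The thick filament came first among the roles. Myh11 (chr16:14194535-14291372, minus strand), the smooth muscle myosin heavy chain and the most specific marker of the lineage, stood at 107, 96.3, 517 and 429 CPM in WT replicates 1 to 4, at 188, 109 and 109.8 CPM in OMD-/- and at 46.4, 88.3 and 87.0 CPM in PRELP-/-. All 3 PRELP-/- libraries lay under all 4 WT libraries, while the OMD-/- libraries lay between the low and the high WT libraries. The log2 fold change was -1.99 ± 0.63 (SE, adjusted p = 0.0936, edgeR) in PRELP-/- and -1.12 ± 0.76 (adjusted p = 0.329) in OMD-/-. The regulatory light chain Myl9, whose phosphorylation starts contraction, had a mean of 54.98 ± 5.96 CPM in PRELP-/- and 112 ± 56.6 CPM in WT, a log2 fold change of -1.05 ± 0.38 (adjusted p = 0.126). The kinase that phosphorylates it, Mylk, had -0.51 ± 0.27 in PRELP-/- and -0.17 ± 0.21 in OMD-/-. Myl6, the essential light chain that non-muscle cells use too, had 0.15 ± 0.32 and -0.10 ± 0.16, and 8.38% of its transcript stretches of 50 bases were shared with other genes, the largest share with Gm5526, so some of its counts may be uncertain.

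The thin filament held the widest differences. Acta2 (chr19:34241090-34255590, minus strand), the smooth muscle α-actin that pericytes and activated fibroblasts also make, stood at 132, 125, 378.5 and 340.5 CPM in WT, at 406, 182 and 189 CPM in OMD-/- and at 135, 84.2 and 82.9 CPM in PRELP-/-. OMD-/- replicate 1 was the highest of all 10 libraries, and PRELP-/- replicate 1 lay just above WT 1 and 2, so neither knockout was apart from WT. Actg2 (chr6:83512905-83536265, minus strand), the γ-actin of visceral smooth muscle, stood at 15.0, 13.0, 107 and 90.8 CPM in WT, at 104, 28.2 and 31.0 CPM in OMD-/- and at 12.6, 7.21 and 7.17 CPM in PRELP-/-. Its 3 PRELP-/- libraries were the lowest of the 10, with a log2 fold change against WT of -2.68 ± 0.80 (adjusted p = 0.0802, edgeR). In OMD-/- the Actg2 log2 fold change was -0.09 ± 1.01.

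Calponin 1 (Cnn1, chr9:22099216-22109630, plus strand), which binds actin and restrains the myosin ATPase, stood at 8.07, 7.63, 104 and 94.3 CPM in WT, at 43.2, 5.42 and 4.72 CPM in OMD-/- and at 6.13, 2.63 and 2.61 CPM in PRELP-/-. All PRELP-/- libraries were under all WT libraries, and the OMD-/- libraries fell on both sides of WT 1 and 2. Its log2 fold change was -3.86 ± 1.08 (adjusted p = 0.0657, edgeR) in PRELP-/-, the largest in size of any member, and -1.64 ± 1.45 (adjusted p = 0.455) in OMD-/-. Transgelin (Tagln, chr9:45929619-45936058, minus strand), an actin-bundling relative of calponin, was low throughout at 1.43, 1.70, 4.21 and 4.91 CPM in WT, 3.49, 1.28 and 2.02 CPM in OMD-/- and 3.53, 1.54 and 1.21 CPM in PRELP-/-, and its groups overlapped. Exons of the antisense gene Gm48529 cover 62.4% of the exonic bases of Tagln, and the strand setting of the counting is not given in the sources used here, so its level is uncertain.

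None of the other 5 thin filament genes passed in either knockout. The tropomyosin Tpm1, which lies along actin, had the lowest adjusted p of all members in PRELP-/- (0.0508, edgeR), at 175 ± 25.3 CPM against 302 ± 67.1 CPM in WT and a log2 fold change of -0.82 ± 0.21. Tpm2 had -0.48 ± 0.22 and caldesmon (Cald1), an actin-binding inhibitor of myosin, -0.43 ± 0.23. Leiomodin 1 (Lmod1), which nucleates actin filaments, had -1.08 ± 0.46, and smoothelin (Smtn), a marker of contractile cells, -0.42 ± 0.16. In OMD-/- these 5 genes had log2 fold changes from -0.40 for Tpm1 to 0.24 for Cald1 and none passed. The 3 OMD-/- libraries of Smtn were nonetheless all under the 4 WT libraries, at 40.7 ± 0.565 against 44.8 ± 1.85 CPM.

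Of the intermediate filament genes, desmin (Des, chr1:75360329-75368579, plus strand), the filament protein of all muscle, stood at 15.5, 18.8, 119 and 114 CPM in WT, at 33.7, 18.1 and 18.1 CPM in OMD-/- and at 19.8, 14.5 and 14.0 CPM in PRELP-/-. Only WT replicates 3 and 4 stood apart, and both knockouts overlapped WT 1 and 2. Its log2 fold change was -2.08 ± 0.75 (adjusted p = 0.124, edgeR) in PRELP-/- and -1.55 ± 0.95 (adjusted p = 0.282) in OMD-/-. Synemin (Synm), which joins desmin to other anchors, had -0.86 ± 0.41 and -0.29 ± 0.38.

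Dense bodies and adhesion plaques gave the first of the 2 members that passed in OMD-/-. Phosphoglucomutase-like protein 5 (Pgm5, also called aciculin, chr19:24683016-24861855, minus strand), a protein of muscle adhesion sites, stood at 54.5, 52.8, 64.8 and 64.3 CPM in WT, at 69.1, 96.0 and 91.8 CPM in OMD-/- and at 36.6, 91.9 and 94.1 CPM in PRELP-/-. All OMD-/- libraries lay above all WT libraries, and PRELP-/- 2 and 3 did so too while PRELP-/- 1 lay under them. Its log2 fold change was 0.52 ± 0.13 (adjusted p = 0.0145, edgeR) in OMD-/- and 0.30 ± 0.29 (adjusted p = 0.543) in PRELP-/-. The call in OMD-/- was lost without OMD-/- replicate 2 (adjusted p = 0.0722) or 3 (0.0694), and without PRELP-/- replicate 1 the gene passed in PRELP-/- as well, at 0.64 (adjusted p = 0.00538).

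The other linkers were mostly lower in the knockouts without passing. Synaptopodin 2 (Synpo2), an actin-bundling protein of the dense body, had a log2 fold change of -1.65 ± 0.55 in PRELP-/- and -1.28 ± 0.68 in OMD-/-. The PDZ-LIM proteins Pdlim3 and Pdlim7, which tie signalling proteins to α-actinin and actin, had -2.19 ± 0.65 and -0.53 ± 0.15 in PRELP-/- (adjusted p = 0.0777 and 0.0626, edgeR), with -1.24 ± 0.73 and -0.29 ± 0.10 in OMD-/-. Ldb3, of the same family and at only 8 to 82 counts a library, had -1.44 ± 0.65 and -1.19 ± 0.58. Filamin A (Flna), an actin cross-linker that most cells make, had 0.39 ± 0.16 (adjusted p = 0.0975) in OMD-/- and -0.26 ± 0.19 in PRELP-/-. The LIM protein Csrp1 had -0.06 ± 0.35 in PRELP-/- and 0.0067 ± 0.33 in OMD-/-, with no group apart from another.

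Among the genes of calcium handling, Atp2b4 (chr1:133699457-133801041, minus strand), a plasma membrane pump that moves calcium out of the cell, was the second member that passed in OMD-/-. It stood at 53.8, 55.8, 52.0 and 47.9 CPM in WT, at 65.8, 78.4 and 79.7 CPM in OMD-/- and at 26.3, 48.2 and 50.1 CPM in PRELP-/-. The OMD-/- libraries were the 3 highest of the 10, and WT was even, with a highest over lowest ratio of 1.17. Its log2 fold change was 0.49 ± 0.10 (adjusted p = 0.00367, edgeR) in OMD-/- and -0.36 ± 0.22 (adjusted p = 0.313) in PRELP-/-. With all 3 groups in 1 fit neither Atp2b4 (adjusted p = 0.105) nor Pgm5 (0.224) passed.

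The other 6 genes of this role did not pass in either knockout. Calsequestrin 2 (Casq2), which stores calcium in the reticulum, had 20 to 124 counts a library and lay lower in all OMD-/- libraries than in any WT library, with a log2 fold change of -1.45 ± 0.50 (adjusted p = 0.0539, edgeR) and -1.10 ± 0.50 in PRELP-/-. Junctophilin 2 (Jph2), which holds the reticulum to the plasma membrane, had -0.49 ± 0.24 in OMD-/- and -0.73 ± 0.23 in PRELP-/-. Cacna1c, the L-type calcium channel through which most calcium enters the detrusor cell, had -0.77 ± 0.28 in PRELP-/- and -0.13 ± 0.14 in OMD-/-. The calcium-activated potassium channel that opposes contraction is made of Kcnma1, at -0.30 ± 0.27 and -0.04 ± 0.12, and its β subunit Kcnmb1, at -1.27 ± 0.49 and -0.56 ± 0.50 in PRELP-/- and OMD-/-. Phospholamban (Pln), which restrains the pump of the reticulum, had only 5 to 41 counts a library, and 59.6% of its exonic bases are covered by Gm47644 on the other strand.

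Of the myosin phosphatase genes, the targeting subunit Ppp1r12b had -0.55 ± 0.20 in PRELP-/- and -0.18 ± 0.14 in OMD-/-. The phosphatase inhibitor Ppp1r14a had 0.13 ± 0.22 and 0.0060 ± 0.23, and was thus among the members whose means differed least.

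The muscarinic receptors were near the lower limit of these libraries. Chrm2 (chr6:36388084-36528414, plus strand), the more numerous muscarinic receptor of the detrusor, stood at 0.417, 0.654, 1.18 and 1.71 CPM in WT, at 0.477, 0.427 and 0.275 CPM in OMD-/- and at 0.387, 0.446 and 0.652 CPM in PRELP-/-, on 6 to 39 counts. Chrm3 (chr13:9875486-10360847, minus strand), the receptor that drives contraction, stood at 0.0398, 0.0872, 0.833 and 0.658 CPM in WT, at 0.286, 0.0854 and 0.229 CPM in OMD-/- and at 0, 0.243 and 0.186 CPM in PRELP-/-, on 0 to 19 counts, and did not pass the filter on low counts. A count of 0 in PRELP-/- replicate 1 allows up to 0.166 CPM, by counting error alone. For both receptors the 2 highest libraries were WT 3 and 4, and every knockout library lay within or under the range of WT.

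Against WT, the transcription regulators had small differences beside their errors. Myocd (chr11:65176561-65269989, minus strand) stood at 1.17, 1.18, 2.63 and 1.80 CPM in WT, at 2.05, 2.13 and 1.88 CPM in OMD-/- and at 0.442, 1.46 and 1.44 CPM in PRELP-/-, on 8 to 60 counts. Srf (chr17:46548329-46556175, minus strand) stood at 48.8, 52.0, 42.9 and 45.7 CPM in WT, at 46.3, 53.5 and 50.3 CPM in OMD-/- and at 43.5, 50.2 and 46.9 CPM in PRELP-/-. Srf thus varied by 1.21-fold across WT libraries in which Cnn1 varied by 13.6-fold, and all groups overlapped for it. The log2 fold changes against WT were 0.25 ± 0.33 for Myocd and 0.06 ± 0.09 for Srf in OMD-/-, and -0.60 ± 0.46 and -0.04 ± 0.13 in PRELP-/-. In PRELP-/- against OMD-/- Myocd had -0.83 ± 0.42 (adjusted p = 0.690, edgeR). All its PRELP-/- libraries lay under all its OMD-/- libraries, where 8.75% of all genes did so.

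The choice of WT libraries set the number of calls, and in OMD-/- the direction as well. Each knockout was therefore also fitted against each WT pair alone, a split made after seeing the data that leaves 2 WT libraries in each fit. The WT pairs differ in the level of these same genes, so the counts and medians below describe how far the contrast rests on the controls, and the shift towards lower values against WT 3 and 4 is fixed by that difference and is no independent test. Against WT 1 and 2, 25 of 34 members had a log2 fold change above 0 in OMD-/- and 7 passed as higher (Myl9, Mylk, Lmod1, Synm, Flna, Pgm5 and Atp2b4), where 12.7% of all genes did, with a median of 0.35. Against WT 3 and 4, 30 of 35 were below 0 and 15 passed as lower, where 19.5% of all genes did, with a median of -0.46. Only Pgm5 and Atp2b4 passed as higher there, beside 20.3% of all genes. The median of all genes was 0.014 against WT 1 and 2 and -0.0011 against WT 3 and 4. Mylk and Synm passed in opposite directions, at 0.28 and 0.46 against WT 1 and 2 and at -0.50 and -0.78 against WT 3 and 4. Pgm5 and Atp2b4 stood above 0 against either pair, at 0.66 and 0.43 against WT 1 and 2 and at 0.38 and 0.55 against WT 3 and 4.

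In PRELP-/- the direction did not turn in this way. Against WT 1 and 2, 29 of 34 members were below 0 with a median of -0.23, where that of all genes was 0.016. None of them passed in edgeR, where 0.709% of all genes passed as lower and 0.00601% as higher. Against WT 3 and 4, 32 of 35 were below 0 with a median of -1.06, where that of all genes was 0.038. Of these members 11 passed as lower (Myh11, Myl9, Acta2, Actg2, Cnn1, Des, Synpo2, Pdlim3, Kcnmb1, Casq2 and Jph2), where 2.38% of all genes did and 0.316% passed as higher. Cnn1 had -1.09 against the former pair and -4.74 against the latter, and Actg2 -0.67 and -3.48.

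Set against OMD-/- directly, which uses no WT library, PRELP-/- had lower means for 29 of 33 members tested, with a median log2 fold change of -0.40 where that of all genes was -0.0020. None of the 33 passed in the unpaired edgeR fit, where 0.00633% of the 15805 genes tested did. At an unadjusted p under 0.05 stood 11, all lower, where 4.51% of all genes were under that p in either direction. DESeq2 called 3 lower (Myl9, Acta2 and Actg2) and limma-voom 7, where 0.441% and 6.39% of all genes passed in either direction. For 18 members the 3 PRELP-/- libraries lay under the 3 OMD-/- libraries, where 8.75% of all genes did, and for none did they all lie above, where 6.1% did. The differences were greatest for Actg2, at -2.58 ± 0.57, Cnn1, at -2.22 ± 0.93, Acta2, at -1.35 ± 0.37, Lmod1, at -1.12 ± 0.40, and Myl9, at -1.11 ± 0.22. With the replicate number as a block, Actg2 passed as lower at -2.37 (adjusted p = 0.0361, edgeR), where 0.253% of all genes passed as lower and 0.019% as higher. Replicates 2 and 3 are close pairs in both groups, and with each close pair summed to 1 library edgeR called 0 of 34 members and 0 of 16781 genes. Without OMD-/- replicate 1 the difference for Cnn1 was -0.43 and that for Actg2 was -1.72.

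Some proportions among the muscle genes set the groups apart and others did not, and 4 ratios, chosen after the values were seen, are given without a test. The ratio of Actg2 to Des within a library was 0.969, 0.693, 0.898 and 0.795 in WT, 3.09, 1.55 and 1.71 in OMD-/- and 0.640, 0.496 and 0.512 in PRELP-/-. The 3 groups did not overlap, and the ratio varied little between the low and the high WT libraries, in which both genes differed about equally, by 7.06-fold and 6.81-fold. The ratio of Acta2 to Myh11 was 0.733 to 1.30 in WT, 1.66 to 2.16 in OMD-/- and 0.952 to 2.91 in PRELP-/-. The ratio of Cnn1 to Acta2 was 0.0611 to 0.277 in WT, overlapped with WT at 0.0250 to 0.106 in OMD-/-, and lay under all WT libraries at 0.0313 to 0.0454 in PRELP-/-. The ratio of Actg2 to Acta2 did not separate OMD-/- from WT, at 0.155 to 0.257 against 0.104 to 0.283 with a mean of 0.192 in both, and was 0.0857 to 0.0937 in PRELP-/-.

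**Figure D4:**
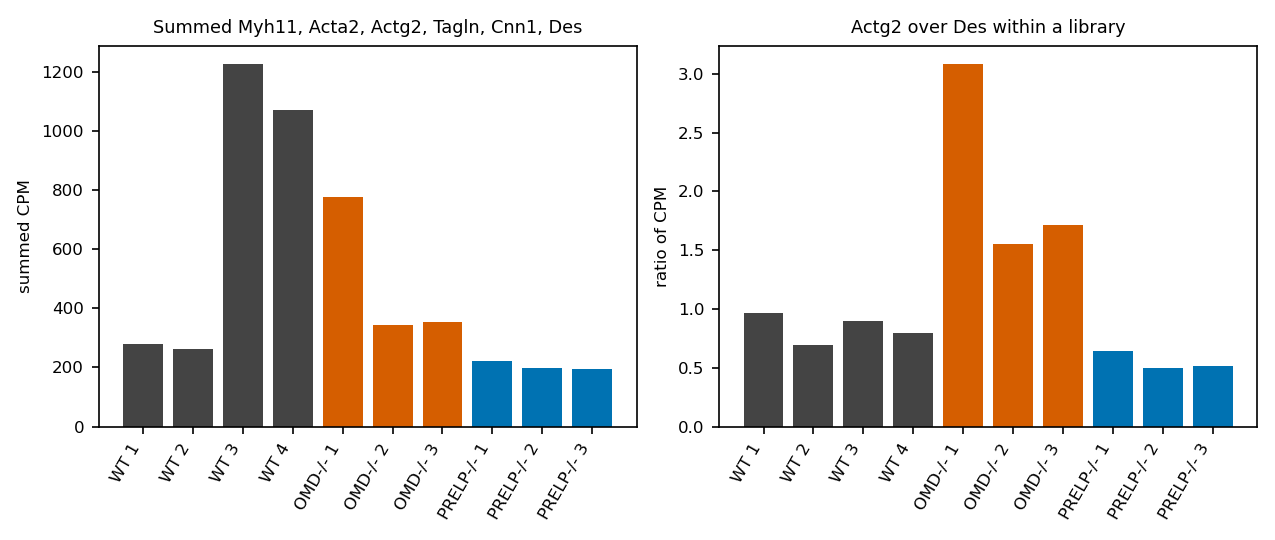
Left, the summed CPM of the 6 defining genes in each library, from 195 in PRELP-/- replicate 3 to 1229 in WT replicate 3. Right, the ratio of Actg2 to Des CPM within each library, from 0.496 to 0.640 in PRELP-/-, 0.693 to 0.969 in WT and 1.55 to 3.09 in OMD-/-.

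Per kilobase of exon, so that genes can be ranked, the highest members in WT were Csrp1 at a mean of 118, Acta2 at 111, Myl6 at 105 and Myl9 at 96.1 CPM per kilobase, and the lowest were Pln at 0.217, Chrm2 at 0.164 and Chrm3 at 0.0647. The order of the highest 4 is not firm, since WT libraries of Acta2 alone varied by 3.03-fold. Myh11 went from 37.8 in WT to 17.9 in OMD-/- and 9.73 in PRELP-/-, and Actg2 from 36.3 to 34.95 and 5.79 CPM per kilobase.

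Among other genes of contraction outside the 35, those that passed in OMD-/- were mostly higher. These lists were drawn up with earlier results of these data known. Their genes are given from the main fit only, and the alternative fits were read for the 35 members alone. With the close pairs summed, the calls over all genes went from 4899 to 1658 in OMD-/- and from 1209 to 13 in PRELP-/-. Whether the calls named below would hold in such fits was not tested. Of 40 tested contractile and cytoskeletal genes 12 passed as higher and 3 as lower in OMD-/-, with a median log2 fold change of 0.15, beside 14.3% and 15.1% of all genes, and 1 and 2 in PRELP-/-. In OMD-/- Filip1l, which binds filamin, rose by 1.01 ± 0.27, Parva, a parvin of integrin adhesions, by 0.77 ± 0.09 and Myh10, a non-muscle myosin, by 0.75 ± 0.09 on the log2 scale. Nexilin (Nexn), an actin-binding protein of muscle, fell in both, at -0.83 ± 0.26 (adjusted p = 0.0392, edgeR) in OMD-/- and -1.40 ± 0.34 (adjusted p = 0.0453) in PRELP-/-. The integrin activator Fermt2 fell in PRELP-/- at -0.67 ± 0.16 and the small muscle protein Mustn1 rose at 0.64 ± 0.15, and both passed in the same direction in OMD-/-, at -0.37 ± 0.12 and 0.62 ± 0.10.

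Of 36 tested calcium and kinase regulators, 10 passed as higher and 6 as lower in OMD-/- (median 0.13), beside 14.3% and 15.1% of all genes, and 1 and 1 in PRELP-/-, beside 1.4% and 5.89%. Among the former were Gucy1a1, a subunit of the guanylate cyclase that nitric oxide activates, at 0.97 ± 0.20, and the cGMP-dependent kinase Prkg1, at 0.74 ± 0.17. Calm3, 1 of the calmodulin genes, rose by 0.52 ± 0.08, and the kinase Rock2, which inhibits myosin phosphatase, fell at -0.59 ± 0.10. In PRELP-/- the plasma membrane calcium channel gene Orai1 rose by 0.58 ± 0.14, and Mrvi1, a target of the cGMP-dependent kinase, fell at -0.91 ± 0.21.

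Of 31 tested receptors and channels, 7 passed as higher and 1 as lower in OMD-/- (median 0.19), and 1 as lower in PRELP-/-, beside the same shares of all genes. The one that was lower was the same gene in both, Adrb3, the β3-adrenergic receptor through which the detrusor relaxes, at 0.375 ± 0.0974 CPM in OMD-/- and 0.656 ± 0.334 CPM in PRELP-/- against 2.37 ± 0.334 CPM in WT. Its log2 fold changes were -2.66 ± 0.32 (adjusted p = 0.00023, edgeR) and -1.89 ± 0.37 (adjusted p = 0.0200), with both knockout means under 1 CPM. In OMD-/- the tachykinin receptor Tacr1 rose by 1.37 ± 0.40, the endothelin receptor Ednra by 1.14 ± 0.22 and the potassium channel Kcnn3 by 0.91 ± 0.22.

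Of 23 tested transcription regulators, 10 passed as higher and 1 as lower in OMD-/- (median 0.29), and 1 as lower in PRELP-/-, again beside those shares. The calcium-responsive Nfatc1 rose by 1.06 ± 0.20, Hand2 by 0.69 ± 0.15, Mef2c by 0.68 ± 0.21 and Hic1 by 0.63 ± 0.14. The 1 gene lower in PRELP-/- was Carmn, a long noncoding RNA enriched in smooth muscle, at 0.182 ± 0.130 CPM against 1.07 ± 0.273 CPM in WT, a log2 fold change of -2.61 ± 0.50 (adjusted p = 0.0190, edgeR). Its mean was below the 1 CPM that the naming rule asked for, and it is named after its values were seen. In PRELP-/- against OMD-/- no gene of these 4 lists passed.

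Some markers of other cells of the bladder wall differed between the knockouts and WT, and their part in the differences above was not tested. The 6 fibroblast genes summed to 8042 to 9276 CPM in WT, 17682 to 21348 CPM in OMD-/- and 9585 to 19562 CPM in PRELP-/-, where replicate 1 was the low one. Of these 6, 4 passed as higher in OMD-/- and 2 in PRELP-/-. The counts of passing markers in this paragraph stand beside 14.3% of all genes passing as higher in OMD-/- and 1.4% in PRELP-/-. The 6 umbrella cell genes summed to 7759 to 9401, 9973 to 13657 and 11440 to 19406 CPM, with 2 and 1 passing as higher. The 6 basal and intermediate urothelial genes summed to 3031 to 3546, 3659 to 4765 and 4122 to 5168 CPM, and none passed. That last sum rested mostly on Krt5 and Krt7, while Trp63 and Col17a1 overlapped WT in both knockouts and Krt17 was 0 throughout. The 6 pericyte genes, cells that share Acta2 with detrusor, summed to 1116 to 1201, 1292 to 1359 and 867 to 1420 CPM, with Pdgfrb and Abcc9 passing as higher in OMD-/-. The 5 endothelial genes summed to 157 to 384 CPM in WT, 448 to 521 CPM in OMD-/-, above all WT libraries, and 288 to 520 CPM in PRELP-/-. None of the 5 passed in either knockout. The leukocyte and interstitial cell of Cajal lists, of 6 and 3 genes, had 4 and 1 genes passing as higher in OMD-/-. Of the muscle lists, Tnni2 was lower in both knockouts and Actn3 higher in OMD-/-, and Tnnt2 was lower in PRELP-/-.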

How the data were processed

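Poly(A) libraries were made from homogenised bladder. The deposited files hold raw read counts per gene, 1 file a library, which the authors obtained with featureCounts. The file headers name HISAT2, while the submitters' processing notes list bcl2fastq, STAR 2.5.2b, featureCounts, DESeq2 and the builds GRCm38 and hg38, and the strand setting and the use of molecular identifiers are not given in the sources used here. The authors' 2 tables of DESeq2 comparisons hold fold changes and p-values and were not used. All 55536 identifiers matched GENCODE vM21 (GRCm38), which gave symbols, exons and coordinates.

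Counts were fitted in edgeR 4.0.16 (R 4.3.3) over the whole table, for each pair of groups, with filterByExpr, TMM and robust quasi-likelihood tests, two-sided, Benjamini-Hochberg adjusted at 0.05. The standard error is the log2 fold change over the root of F. CPM were TMM-scaled over all 10 libraries. Depth of 20391437 to 46269079 counts puts 3 counts at 0.0596 to 0.166 CPM, and intervals of this kind cover counting error only. DESeq2 1.42.0, limma 3.58.1 and other settings were alternatives, and the code was tested on simulated counts with 200 changed genes. The result of 1 marker gene is not reported here. The members and lists were chosen with earlier results of these data known. All 35 members are named, with values in every library for 10 fixed genes and those that passed, and up to 4 passing genes of each other list with the largest fold changes and a mean of at least 1 CPM.

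Pairing by replicate number was checked by correlating the deviations of same-numbered libraries from their group means. The correlations were 0.302, 0.180 and 0.148 between PRELP-/- and OMD-/-. The main fit of that comparison was unpaired, and a fit with the number as a block was an alternative. Replicates 2 and 3 are close pairs in both groups, so these correlations are not independent and do not show that libraries were paired. OMD-/- replicate 1 was at 35.4% from PRELP-/- replicate 1 but at 8.84% and 9.94% from PRELP-/- 2 and 3. The correlations were -0.045 to 0.041 between OMD-/- and WT and -0.10 to 0.14 between PRELP-/- and WT. There the numbers were not taken as pairs.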

Additional observations from a re-analysis of the deposited data

How the results depend on the processing

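Depth limits Chrm3, Chrm2, Pln and Myocd, and the small number of libraries, their close pairs and the uneven sex limit the rest. In OMD-/- against WT, with 2 members called higher, 0 lower and a median log2 fold change of -0.16, all 3 groups in 1 fit gave 0 higher, summing the close pairs gave 0, and WT replicates 1 and 2 alone gave 7. Members called lower numbered 1 with DESeq2, 9 with limma-voom, 7 with Y chromosome genes as covariate and 15 with WT 3 and 4 alone. In these fits 26.6%, 43.3%, 38.8% and 39.8% of all genes passed in either direction. The median was -0.29 with limma-voom, 0.35 with WT 1 and 2 alone and -0.46 with WT 3 and 4 alone. Leaving out 1 library at a time gave 1 to 3 higher, 0 to 4 lower and medians from -0.27 to -0.07. In PRELP-/- against WT, with 0 members called in either direction and a median of -0.67, the lower ones numbered 9 with DESeq2, 1 without a filter on low counts, 4 with all 3 groups in 1 fit, 24 with limma-voom (and 1 higher), 3 with the Y covariate and 11 with WT 3 and 4 alone. Of all genes 13.0%, 3.76%, 14.7%, 42.0%, 5.49% and 2.70% passed in those fits in either direction, in the same order. The median was -0.23 with WT 1 and 2 alone and -1.06 with WT 3 and 4 alone. Leaving out 1 library gave 0 to 1 higher, 0 to 2 lower and medians from -0.80 to -0.56. In PRELP-/- against OMD-/-, with 0 called, the lower ones numbered 3 with DESeq2, 7 with limma-voom and 2 with the Y covariate. Of all genes 0.441%, 6.39% and 0.0253% passed there in either direction. Medians in this comparison ran from -0.56 to -0.31 with 1 library left out. Against WT 1 and 2 alone, Mylk (0.28) and Synm (0.46) turned to higher in OMD-/-, and limma-voom turned Myl6 to lower in PRELP-/- (-0.47). The causes of these changes were not tested, and some of the fits also hold fewer libraries. Size factors of DESeq2 (RLE) changed no member's call in any comparison.

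With the replicate number as a block, 1 member (Actg2) was lower in PRELP-/- against OMD-/-. The numbers are not shown to pair the libraries there, nor against WT. Against WT the block gave 2 higher, 0 lower and a median of -0.047 in OMD-/-. In PRELP-/- against WT it gave 0 calls with a median of -0.58. The block changed no member's call against WT.

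Over all genes, 4899 passed in OMD-/- against WT, beside 2485 with all 3 groups in 1 fit, 1658 with the close pairs summed, 3128 without OMD-/- replicate 2 and 2951 without OMD-/- replicate 3. In PRELP-/- against WT 1209 passed, beside 2547 with DESeq2, 2485 with all 3 groups in 1 fit, 6963 with limma-voom, 111 with the replicate block, 13 with the close pairs summed, 119 with WT 1 and 2 alone, 453 with WT 3 and 4 alone, and 475 to 3807 with 1 library left out, the highest without PRELP-/- replicate 1. In PRELP-/- against OMD-/- 1 gene passed, beside 88 with DESeq2, 5 with no filter, 3 with all 3 groups in 1 fit, 1010 with limma-voom, 4 with the Y covariate, 43 with the replicate block, 16 without PRELP-/- replicate 1 and 36 without OMD-/- replicate 1. The fits with close pairs summed and with WT pairs alone were chosen after seeing the data.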
